A study of Mus musculus with 44 samples.

Results

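Gpnmb, Mmp12, Trem2, Cd9, Cd63, Lgals3, Fabp5, Itgax and Atp6v0d2 are 9 genes that mark lipid-associated macrophages, and their transcripts were followed here through mouse livers on 3 diets. They are 9 of the 35249 genes in the count table, and all 9 were among the 14862 genes that passed the filter on low counts. Gpnmb, Mmp12, Trem2 and Itgax passed only through the choline-deficient livers: the filter asked for 1.48 CPM (here counts relative to the library's total, without TMM scaling) in at least 3 libraries, and of the control libraries 1 reached it for Gpnmb, 2 for Itgax and none for Mmp12 or Trem2. The genes were chosen by name, with their diet changes in these livers already known. The diet changes are therefore given as a description, without a test, while differences between genotypes were tested.

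Each library was made from total RNA of whole liver, and there were 44 libraries. Mice were wild type (WT), Ripk3-/- (Ripk3KO) or Mlkl-/- (MlklKO). From 2 months of age, and for 6 months, they ate normal chow (the control diet) or a diet poor in choline that was either low in fat (CD-LFD) or high in fat (CD-HFD). WT livers numbered 6 on each diet. Ripk3KO livers numbered 6 on control, 3 on CD-LFD and 4 on CD-HFD, and MlklKO livers 6, 4 and 3 in the same order. RIPK3 is the kinase that phosphorylates MLKL, and MLKL is the protein that then ruptures the membrane in necroptosis, a form of programmed cell death. The comparison of knockout with WT livers asks whether the genes differ where necroptosis is blocked. How the knockout alleles were made, and the sex of the mice, are not given in the sources used here.

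Lipid-associated macrophages gather where cells load with lipid or die, in obese fat, in atherosclerotic plaques and in the steatotic liver. TREM2 is a surface receptor for lipids, lipoproteins and cell debris, and it signals through the adaptor TYROBP (DAP12) and the kinase SYK. The programme that goes with TREM2 includes lysosomal, lipid-binding and matrix-degrading proteins, so its members range from receptors to enzymes. In liver these cells arise largely from recruited monocytes, whereas Kupffer cells are the resident macrophages, marked in the mouse by CLEC4F and TIMD4. A whole-liver library cannot tell more cells of a type from more RNA per cell, and several members (Cd9, Cd63, Lgals3 and Fabp5) are also transcribed in other cell types.

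Total counts lay between 2476268 and 12471844 except in WT CD-LFD replicate 3, with 88204703. Ripk3 was at 0 to 1.26 CPM (the gene's count relative to the library's total, scaled by TMM) in the Ripk3KO control livers against 0.51 to 4.88 in WT control livers, and at no more than 0.17 in the other Ripk3KO livers. The highest Ripk3KO value belonged to the library labelled Ripk3KO control replicate 5. Mlkl was at 1.46 to 3.03 CPM in MlklKO control livers against 2.28 to 6.14 in WT control livers, ranges that overlap. On CD-HFD it was at 2.79 to 12.5 CPM in MlklKO against 14.3 to 17.6 in WT, and the 12.5 belonged to the library labelled MlklKO CD-HFD replicate 1. Whether the Mlkl reads fall in the deleted part of the gene was not tested. The labels do not say that libraries of a group came from separate mice, and p-values measure the spread between these libraries.

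The promoters of 7 members were in the RefSeq promoter table (build GRCm38.p6), in 8 windows of 300 bases because Mmp12 had 2. Motifs known from macrophages and lysosomal genes, 4 in all, were searched on both strands. The AP-1 motif TGANTCA was in 4 of the 8 windows (Gpnmb, Itgax, Trem2 and 1 of Mmp12), and in 7.81% of the 32851 promoters in the table. The PU.1 and ETS core GAGGAA was in 3 windows (Cd63, Trem2 and the other Mmp12 window), and in 28.3% of all promoters. The M-box TCATGTG, read by the MITF family, was in 1 Mmp12 window and in 3.77% of all promoters. The E-box CACGTG, the core of the lysosomal CLEAR element, was in none of the 8 windows and in 7.15% of all promoters. No match overlapped another. The 4 windows with an AP-1 match are shown from 90 bases before to 20 after the transcription start, on the plus strand, as the set that shares a motif, picked after the search. Capitals mark the motif matches, read on either strand.
Gpnmb, chr6:49036428-49036537: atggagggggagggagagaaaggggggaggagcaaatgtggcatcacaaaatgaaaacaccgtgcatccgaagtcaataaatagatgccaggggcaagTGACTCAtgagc
Itgax, chr7:128129460-128129569: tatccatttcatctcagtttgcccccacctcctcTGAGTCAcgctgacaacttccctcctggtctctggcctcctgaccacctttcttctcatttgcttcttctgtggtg
Mmp12, chr9:7347284-7347393: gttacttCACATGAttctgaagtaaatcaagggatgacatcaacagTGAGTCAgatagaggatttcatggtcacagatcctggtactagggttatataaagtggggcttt
Trem2, chr17:48346311-48346420: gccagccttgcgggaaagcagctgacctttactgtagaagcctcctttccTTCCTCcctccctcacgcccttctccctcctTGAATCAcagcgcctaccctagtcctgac
The AP-1 match began 9 bases after the start in Gpnmb, and 56, 44 and 9 bases before it in Itgax, Mmp12 and Trem2. In the Mmp12 window the M-box stands in capitals on the minus strand as CACATGA, and in the Trem2 window the PU.1 and ETS core stands as TTCCTC. These matches describe the letters only. Binding was not measured.

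Trem2, the receptor itself, was nearly absent on the control diet and was higher on each choline-deficient diet. In WT livers its lowest, median and highest values were 0.46, 0.62 and 1.53 CPM on control. With CD-LFD they were 10.005, 14.3 and 20.6 CPM, and with CD-HFD 54.4, 74.2 and 99.2. The 3 ranges did not overlap. The fitted log2 change from control was 4.31 (SE 0.34) on CD-LFD and 6.73 (SE 0.33) on CD-HFD. In Ripk3KO the CD-LFD livers held 10.9 to 17.5 CPM and the CD-HFD livers 66.2 to 80.8. In MlklKO these were 9.93 to 19.3 and 64.3 to 83.2, so each knockout range lay inside or across the edge of the WT range.

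Gpnmb, a lysosomal and cell-surface glycoprotein, showed one of the widest ranges of the members. WT livers ran from 0 through a median of 0.41 to 1.82 CPM on control. On CD-LFD the same 3 values were 21.8, 44.5 and 74.9 CPM, and on CD-HFD they were 208, 276 and 664 CPM. The highest WT liver on CD-HFD was replicate 3, and no control liver of any genotype passed 1.82 CPM. The 6 WT control libraries held 10 counts of Gpnmb between them and the 6 CD-HFD libraries 19180. At these depths the ratio of scaled counts was 914, with an exact 95% interval of 497 to 1907 that covers counting error only. In the 3 Ripk3KO CD-LFD livers Gpnmb was at 39.1, 26.7 and 50.8 CPM, and the 4 CD-HFD livers had 318, 387, 342 and 453. In the 4 MlklKO CD-LFD livers it was at 33.9, 68.3, 41.8 and 46.7 CPM, and the 3 CD-HFD livers had 567, 345 and 697. The highest single value, 697 CPM, was that of MlklKO CD-HFD replicate 4.

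Mmp12, the macrophage elastase, was also near 0 on control and high on CD-HFD. In WT livers it ran from 0 through 0.14 to 0.73 CPM on control, from 11.3 through 17.9 to 20.8 on CD-LFD, and from 141 through 183 to 420 on CD-HFD. The pooled counts were 6 in WT control and 12691 in WT CD-HFD livers, a scaled ratio of 1008 (exact 95% interval 463 to 2748). Its log2 step from CD-LFD to CD-HFD, 3.76 (SE 0.25) in WT, was the largest of the 9 genes in each genotype. Ripk3KO livers had 24.5, 17.0 and 28.0 CPM of Mmp12 with CD-LFD, while with CD-HFD they had 263, 295, 296 and 303. MlklKO livers had 22.1, 42.1, 17.0 and 26.3 CPM with CD-LFD, while with CD-HFD they had 340, 266 and 410. All 7 knockout livers on CD-HFD thus stood at 263 CPM or above, inside the upper part of the WT range.

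Lgals3 encodes galectin-3, a secreted and lysosome-binding lectin, and it was the most abundant member per kilobase of exon on CD-HFD. WT livers ran from 2.72 through 3.47 to 6.10 CPM on control, from 27.7 through 40.8 to 63.1 on CD-LFD, and from 221 through 313 to 443 on CD-HFD. The fitted log2 changes from control were 3.53 (SE 0.28) and 6.40 (SE 0.29). Cd63, a tetraspanin of late endosomes and lysosomes, ran from 3.72 through 7.83 to 9.57, from 17.2 through 28.3 to 38.9, and from 96.6 through 123 to 163 CPM on the same diets. Cd9, a tetraspanin of the cell surface, changed less. It ran from 14.1 through 16.6 to 20.7 on control, from 24.8 through 29.4 to 35.1 on CD-LFD, and from 55.2 through 77.0 to 94.9 CPM on CD-HFD. In the knockouts the Cd9 ranges on control and CD-LFD overlapped: 16.5 to 24.0 and 16.2 to 48.0 CPM in Ripk3KO, and 14.6 to 24.1 and 20.5 to 33.6 in MlklKO.

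Itgax encodes CD11c, an integrin of macrophages and dendritic cells. In WT livers it ran from 0 through 1.01 to 2.68 CPM on control, from 8.23 through 11.5 to 18.4 on CD-LFD, and from 35.5 through 43.97 to 76.5 on CD-HFD. Atp6v0d2 encodes the d2 subunit of the V-ATPase proton pump, which acidifies lysosomes, and is abundant in osteoclasts. In WT livers it ran from 0 through 1.16 to 3.38 CPM on control, from 6.50 through 9.13 to 16.7 on CD-LFD, and from 23.8 through 33.6 to 49.0 on CD-HFD. Both genes separated the 3 diets without overlap within each genotype.

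**Figure D1:**
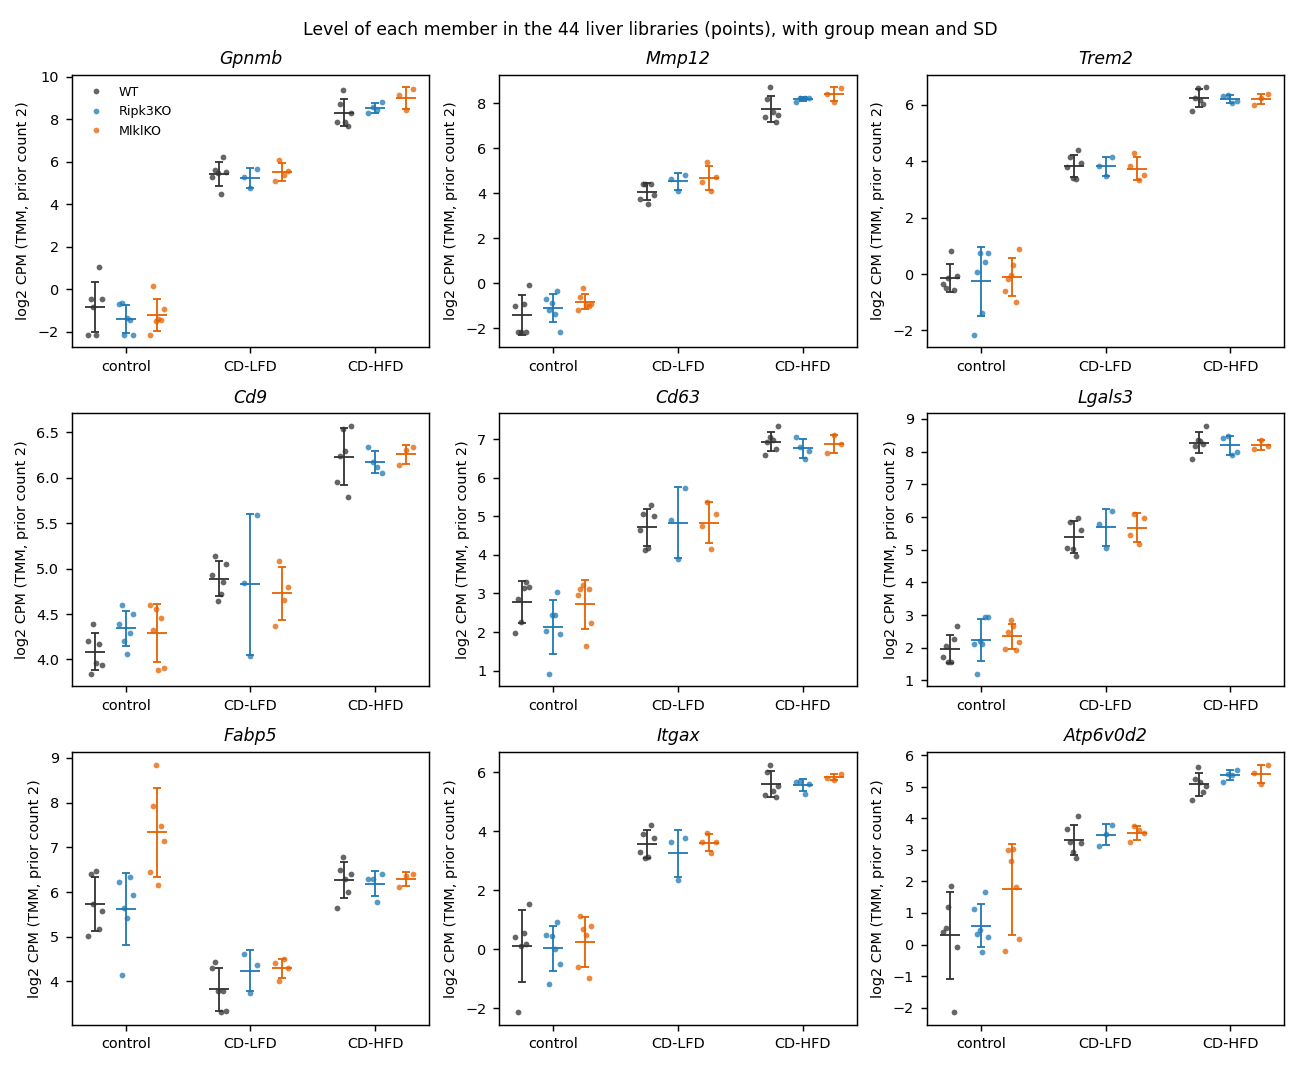
Level of each gene as log2 CPM (y axis; TMM scaling, prior count 2) on the control, CD-LFD and CD-HFD diets (x axis) for WT, Ripk3KO and MlklKO. Each point is 1 of the 44 libraries, and bars are the group mean and SD. For all genes but Fabp5 the group means step up from control to CD-LFD to CD-HFD in each genotype, while Fabp5 is lowest on CD-LFD.

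Fabp5, a cytosolic carrier of fatty acids, had another pattern. In WT livers it ran from 32.0 through 50.1 to 87.8 CPM on control, from 9.67 through 13.5 to 21.5 on CD-LFD, and from 49.4 through 80.9 to 109 on CD-HFD. The control and CD-HFD ranges overlapped, and the CD-LFD range lay below both. The fitted log2 change from control was -1.97 (SE 0.34) on CD-LFD and 0.48 (SE 0.32) on CD-HFD. The Ripk3KO livers had the same order, with a change of -1.49 (SE 0.43) on CD-LFD and 0.44 (SE 0.35) on CD-HFD. In the MlklKO livers the change was -3.33 (SE 0.41) on CD-LFD and -1.33 (SE 0.41) on CD-HFD, from a control level that was higher than in WT. From CD-LFD to CD-HFD, Fabp5 was higher in all 3 genotypes, by 2.45 (SE 0.34) in WT, 1.93 (SE 0.45) in Ripk3KO and 2.00 (SE 0.43) in MlklKO on the log2 scale.

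Between control and CD-LFD the ranges of all 9 members were apart in WT livers, while Cd9 and Fabp5 overlapped in Ripk3KO and Cd9 in MlklKO. Of all genes tested, 7.62%, 20.7% and 25.9% had ranges apart in WT, Ripk3KO and MlklKO. Between control and CD-HFD Fabp5 alone overlapped in each genotype, and 20.9%, 36.4% and 39.4% of all genes had ranges apart. By the test, 27.7% of all genes in WT were called on CD-LFD and 47.7% on CD-HFD (edgeR quasi-likelihood, adjusted p under 0.05). The choice of the members used these contrasts, so nothing is read from the counts. The median log2 change of the 9 was 3.40 on CD-LFD and 5.46 on CD-HFD, beside -0.03 and -0.07 over all genes tested. Scaling by library size alone moved the all-gene medians to 0.27 and 0.43, and the same 8 genes were higher on CD-LFD and all 9 on CD-HFD. Ordered from the most positive to the most negative change, Gpnmb and Mmp12 came first, then Trem2, and Cd9 and Fabp5 came last in each genotype. In MlklKO on CD-LFD the last place of Fabp5 was a change of -3.33.

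**Figure D2:**
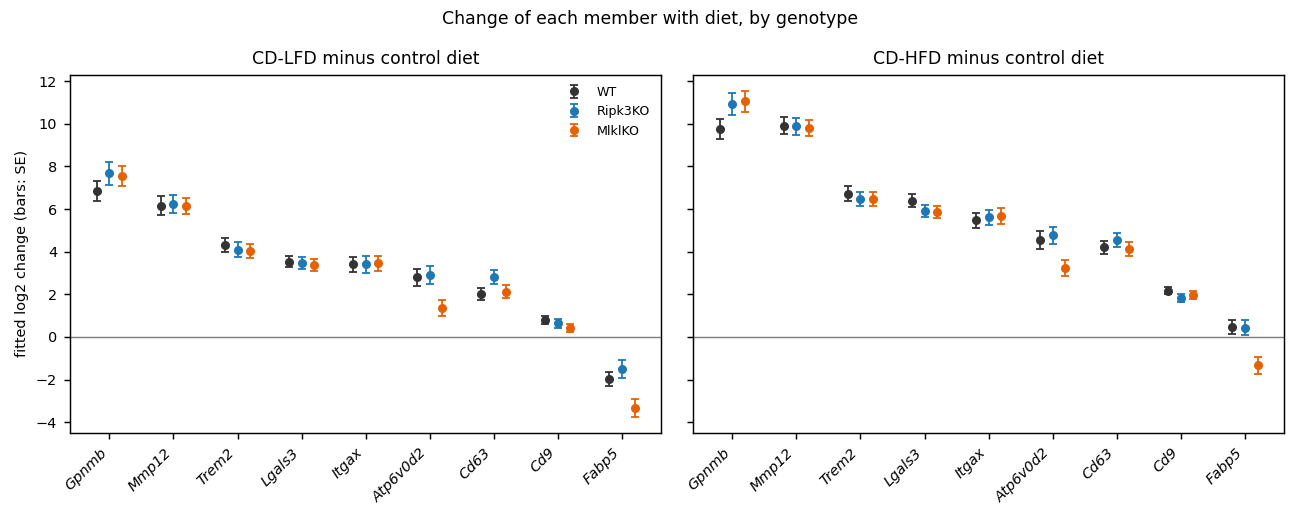
Fitted log2 change (y axis; bars are SE) of each gene (x axis) on CD-LFD against control (left) and CD-HFD against control (right), in WT, Ripk3KO and MlklKO. The changes run from 11.05 for Gpnmb in MlklKO on CD-HFD to -3.33 for Fabp5 in MlklKO on CD-LFD. The genotypes are farthest apart on CD-HFD for Fabp5, for Atp6v0d2 (4.55 in WT and 3.25 in MlklKO) and for Gpnmb (9.77 in WT and 11.05 in MlklKO).

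Per kilobase of exon, the levels of the members were ordered differently on each diet. In WT control livers Fabp5 had the highest mean, 15.9 CPM per kilobase, and Cd9 followed with 8.26, with overlapping ranges. Lgals3 and Cd63, next in order, were apart from Cd9 and did not differ beyond their spread from each other (2.07 and 1.92). Mmp12 was last with 0.030. In WT livers on CD-LFD, Lgals3 (23.5) and Cd9 (14.5) led without being apart from each other, Cd9 was apart from Cd63, and every later gene overlapped the next in order from Cd63 (7.41) to Mmp12 (2.34). On CD-HFD Lgals3 had a mean of 171 and was apart from all others. Gpnmb (53.4), Cd9 (37.4), Cd63 (33.7), Mmp12 (31.9), Fabp5 (22.1), Trem2 (15.6), Atp6v0d2 (12.6) and Itgax (10.4) followed, and none was apart from its neighbour. By its mean Fabp5 had thus gone from the first place to the sixth, and Gpnmb was second, but each of these places overlapped the next.

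Macrophage transcripts in general also rose. All 11 pan-macrophage markers (Adgre1, Cd68, Csf1r, Mertk, Cd14, Fcgr1, Lyz2, Aif1, Cybb, Mpeg1 and Laptm5) were called higher in WT livers on CD-HFD, with a median log2 change of 2.55, and 8 of 11 on CD-LFD, with a median of 1.11. Their summed level was 148 to 205 CPM in WT control livers, 262 to 455 on CD-LFD and 942 to 2477 on CD-HFD. Kupffer cell markers did not all move one way. In WT livers 3 of the 6 tested were called lower on CD-HFD, 2 on CD-LFD and none higher. In Ripk3KO 2 were lower on each diet, and in MlklKO 2 were lower on CD-LFD and 1 was higher and 1 lower on CD-HFD. Of all genes, 46.3% were called on CD-HFD and 24.1% on CD-LFD in Ripk3KO and 45.2% and 37.9% in MlklKO, beside 47.7% and 27.7% in WT, so nothing is read from the marker counts. Their median summed level on control, CD-LFD and CD-HFD was 153.9, 107 and 75.6 CPM in WT, 113, 92.5 and 151 in Ripk3KO, and 107, 126 and 163 in MlklKO livers. Each diet's range overlapped control except WT CD-LFD, at 37.4 to 116 CPM against 129 to 175 on control. Clec4f, a Kupffer cell lectin, had a mean of 79.3 CPM in WT control, 42.2 in CD-LFD and 24.8 in CD-HFD livers. Timd4, a receptor for dying cells on resident macrophages, was at 4.84, 0.31 and 0.18 CPM. Cd5l, a secreted macrophage protein, had means of 41.1 CPM on control and 46.01 on CD-HFD in WT, and of 32.9 and 95.8 in MlklKO livers.

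To set each member against the macrophage signal, its CPM was divided by the summed CPM of the 11 markers in the same library. In WT livers the median for Gpnmb was 0.22% on control, 11.01% on CD-LFD and 25.0% on CD-HFD. Mmp12 stood at 0.07%, 4.51% and 16.8%, Lgals3 at 2.11%, 11.6% and 25.8%, and Trem2 at 0.32%, 3.82% and 6.02%. These 4 genes were thus higher relative to the macrophage markers on each choline-deficient diet. Itgax (0.57%, 3.25% and 3.67%) and Atp6v0d2 (0.67%, 2.58% and 2.56%) were higher on CD-LFD and stayed near that share on CD-HFD, where their level and the markers were higher together. Cd63 stood at 4.51%, 7.06% and 10.3%. Over these 11 markers the Cd63 median in the knockouts was not higher on CD-HFD than on CD-LFD. It was at 2.54%, 6.89% and 6.72% in Ripk3KO and 5.03%, 7.54% and 5.58% in MlklKO. Atp6v0d2 was at 2.77%, 2.91% and 2.41% in MlklKO, with overlapping ranges.

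Cd9 and Fabp5 were lower relative to the same markers. The Cd9 median was 10.01% on control, 7.89% on CD-LFD and 5.94% on CD-HFD in WT livers. The Fabp5 median was 25.8%, 3.65% and 6.09%, and in MlklKO control livers it reached 98.6%. The sum leans on Lyz2, a lysozyme gene with a near-identical neighbour, which made up 10.5% to 24.5% of it in WT control livers and 45.5% to 58.5% on CD-HFD. Over the other 10 markers, an alternative added after the values were seen, the CD-HFD medians in WT were 46.7% for Gpnmb, 33.0% for Mmp12, 48.8% for Lgals3, 11.4% for Trem2, 7.29% for Itgax, 4.90% for Atp6v0d2 and 11.8% for Cd9. Without Lyz2, Itgax and Atp6v0d2 were therefore also higher on CD-HFD than on CD-LFD (4.46% and 3.31%), and the Cd9 medians were 12.3%, 11.3% and 11.8% on the 3 diets in WT. In the knockouts the Cd9 median was still lower on both choline-deficient diets, at 14.4%, 9.65% and 9.60% in Ripk3KO and 15.3%, 11.1% and 8.58% in MlklKO, with overlapping ranges.

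**Figure D3:**
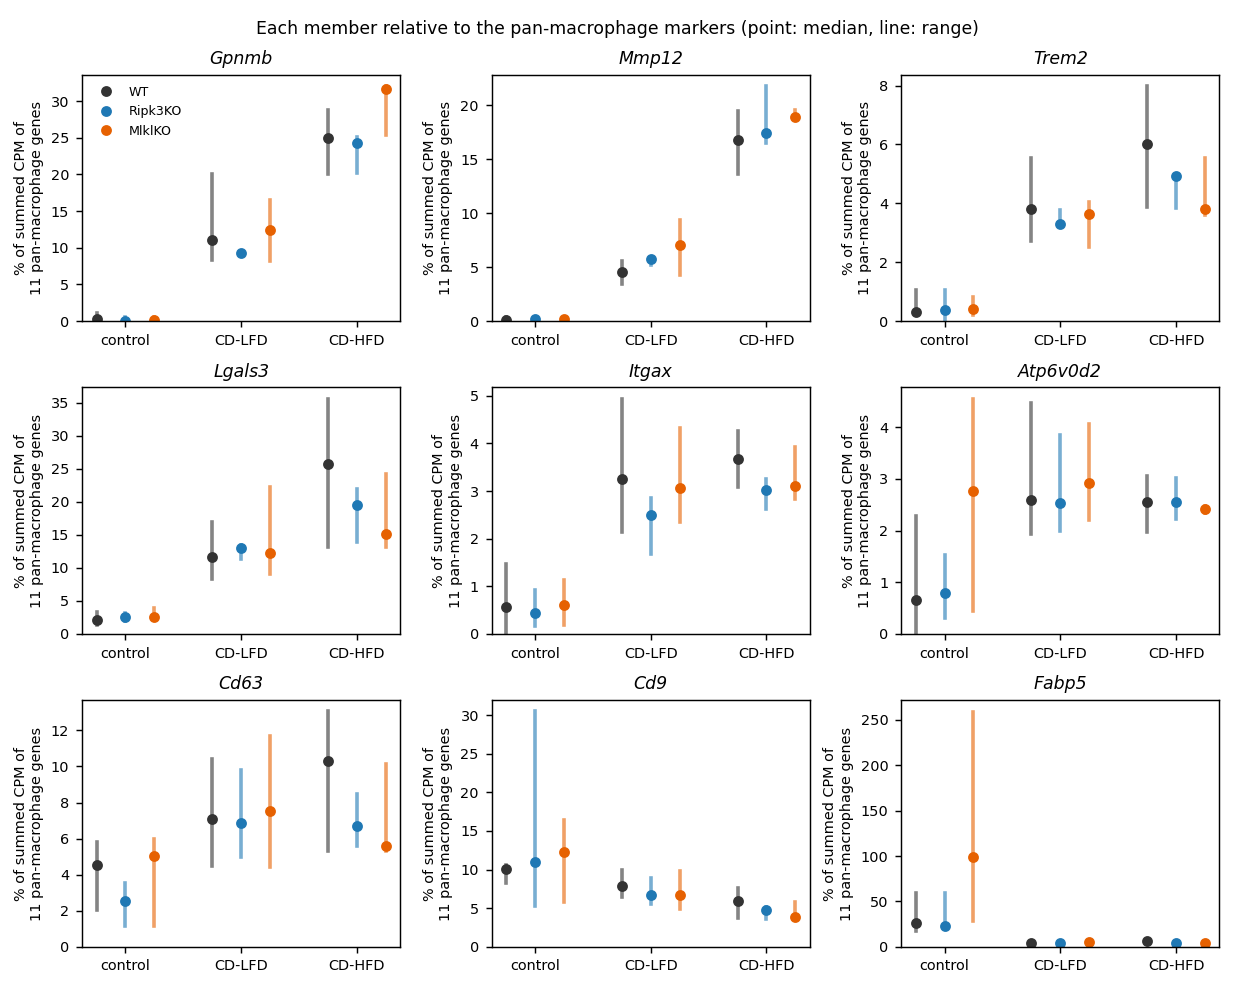
CPM of each gene as a percent of the summed CPM of 11 pan-macrophage markers (y axis, one scale per panel) on the 3 diets (x axis) by genotype. Points are group medians and lines run from the lowest to the highest library. Gpnmb, Mmp12 and Lgals3 increase from control to CD-LFD to CD-HFD, Cd9 and Fabp5 are highest on control, and Fabp5 in MlklKO control has a median of 98.6%.

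Markers of other cell types also differed on CD-HFD in WT livers. Of all genes 47.7% were called there, 23.5% higher and 24.1% lower, and nothing is read from the marker counts. All 6 cholangiocyte markers were called higher (summed level 44.9 to 82.9 CPM on control and 679 to 1126 on CD-HFD). Most of that sum was Spp1, which is also a lipid-associated macrophage gene, with a mean of 39.8 CPM on control and 798 on CD-HFD. The other 5 summed to 15.9 to 34.6 and 82.03 to 123 CPM, a sum added after the values were seen. All 4 monocyte markers tested were higher (4.69 to 10.1 and 32.5 to 54.8 CPM). Of the 6 dendritic cell markers 5 were higher and 1 lower, at 7.98 to 31.0 and 25.7 to 37.4 CPM. All 6 hepatocyte markers were lower. The adipocyte list, nearly all Fabp4 and Cidec, summed to 10.6 to 24.4 CPM on control and 64.4 to 85.9 on CD-HFD. The neutrophil list (0.31 to 9.86 and 3.05 to 9.68 CPM) and the platelet list (9.92 to 19.8 and 9.73 to 14.0 CPM) overlapped. Of the 6 osteoclast markers 3 were tested and 1 was higher. Acp5 made up most of that list, with a mean of 120.4 CPM on control and 118 on CD-HFD. Dcstamp, an osteoclast fusion protein, was at 0 to 0.49 CPM on control and 0.56 to 3.16 on CD-HFD. The melanocyte list, relevant because melanocytes also express Gpnmb, summed to 1.82 to 9.51 CPM on control and 0 to 0.95 on CD-HFD, with Slc45a2 at 0 on CD-HFD. Dct, a melanin enzyme, had a mean of 4.53 CPM on control and 0.018 on CD-HFD. The part of these cells in the members' levels was not tested.

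Other genes of the same macrophage programme followed the members in part. Of 20 further lipid-associated macrophage genes, all tested, 17 rose and 1 fell in WT livers on CD-HFD, where 47.7% of all genes were called, and 10 rose and none fell on CD-LFD, where 27.7% were called. The list median was a log2 change of 1.60 on CD-HFD. Capg, an actin-capping protein, rose by 5.52 (SE 0.31) and Spp1, which encodes osteopontin, by 4.33 (SE 0.36). Apoe, the lipid carrier that hepatocytes secrete in bulk, fell by 0.55 (SE 0.16, adjusted p = 0.00429). The lists share genes with the markers above (Cd68, Spp1 and Fabp4), and they were chosen with results of these data known.

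Of 16 TREM2 partners and signalling genes 13 were tested. On CD-HFD, where 47.7% of all genes were called, 12 rose and none fell, with a median of 2.24. Lat2, an adaptor of myeloid signalling, rose by 4.07 (SE 0.41), and Tyrobp, the adaptor that carries the TREM2 signal, by 3.52 (SE 0.25). On CD-LFD, where 27.7% of all genes were called, 10 of the 13 rose, Tyrobp by 1.35 (SE 0.24). Trem2 and its adaptor therefore both stood higher on each diet.

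Of 23 other V-ATPase subunits listed 19 were tested, and on CD-HFD 7 rose and 2 fell, with a median of 0.15. On CD-LFD 3 rose and 3 fell. Both counts are near the shares of all genes called (47.7% and 27.7%) and say nothing particular about the subunits. Atp6v0e2 rose by 2.96 (SE 0.44) on CD-HFD and Tcirg1, the a3 subunit of osteoclast and macrophage lysosomes, by 1.63 (SE 0.20). Atp6v0a2 fell by 0.42 (SE 0.14) and Atp6v1h by 0.35 (SE 0.13). Atp6v0d2 itself had a change of 4.55 (SE 0.40) in the same livers.

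Among 28 relatives of the members (tetraspanins, galectins, fatty acid binding proteins, leukocyte integrins, metalloproteinases and Pmel) 21 were tested. On CD-HFD, where 47.7% of all genes were called, 12 rose and 2 fell, with a median of 1.13. On CD-LFD, where 27.7% of all genes were called, 11 rose. Itgam, the CD11b integrin chain, rose by 5.19 (SE 0.39) on CD-HFD, and Itgb2, the beta chain that pairs with both Itgam and Itgax, by 4.20 (SE 0.33). Fabp1, the fatty acid binding protein of hepatocytes, fell by 1.12 (SE 0.27), and Lgals9, another galectin, by 0.51 (SE 0.18). Of 18 transcription factors of macrophages and lysosomal genes, 10 rose and 2 fell on CD-HFD, beside 47.7% of all genes called. Atf3, an early stress factor, rose by 3.45 (SE 0.39) and Spi1, which encodes PU.1, by 2.91 (SE 0.28). Cebpa fell by 0.75 (SE 0.18) and Nr1h3, which encodes the sterol receptor LXR alpha, by 0.46 (SE 0.10).

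In livers on either choline-deficient diet, no member was called different between genotypes. On CD-HFD, 0 of 9 were called in Ripk3KO against WT, where 0.377% of all genes were called, and 0 of 9 in MlklKO against WT, where 0% were. At an unadjusted p under 0.05, 1 member and 1246 genes passed in the MlklKO comparison, and DESeq2 also called no member there. Between the knockouts, 0 of 9 were called with a background of 0.0336%. On CD-LFD, 0 of 9 were called in Ripk3KO (1.1% of all genes), MlklKO (2.56%) and MlklKO against Ripk3KO (0.0606%). A count of 0 among 9 genes is near each of these backgrounds and is no result about the members in particular.

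The sizes of the differences were small beside the diet changes. On CD-HFD the Ripk3KO minus WT differences of the 9 genes ran from -0.19 (SE 0.28) for Cd63 to 0.33 (SE 0.24) for Mmp12 on the log2 scale. The MlklKO minus WT differences ran from -0.10 (SE 0.27) for Lgals3 to 0.63 (SE 0.32) for Gpnmb. Mmp12 was at 0.55 (SE 0.26) in the latter comparison, with an unadjusted p of 0.0404 and an adjusted p of 0.587 (edgeR), and at 0.66 (SE 0.25) in MlklKO on CD-LFD, with an adjusted p of 0.174. Trem2 differed from WT by -0.06 (SE 0.23) in Ripk3KO and -0.06 (SE 0.26) in MlklKO on CD-HFD. With errors of this size, small differences in either direction could not be told from none.

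**Figure D4:**
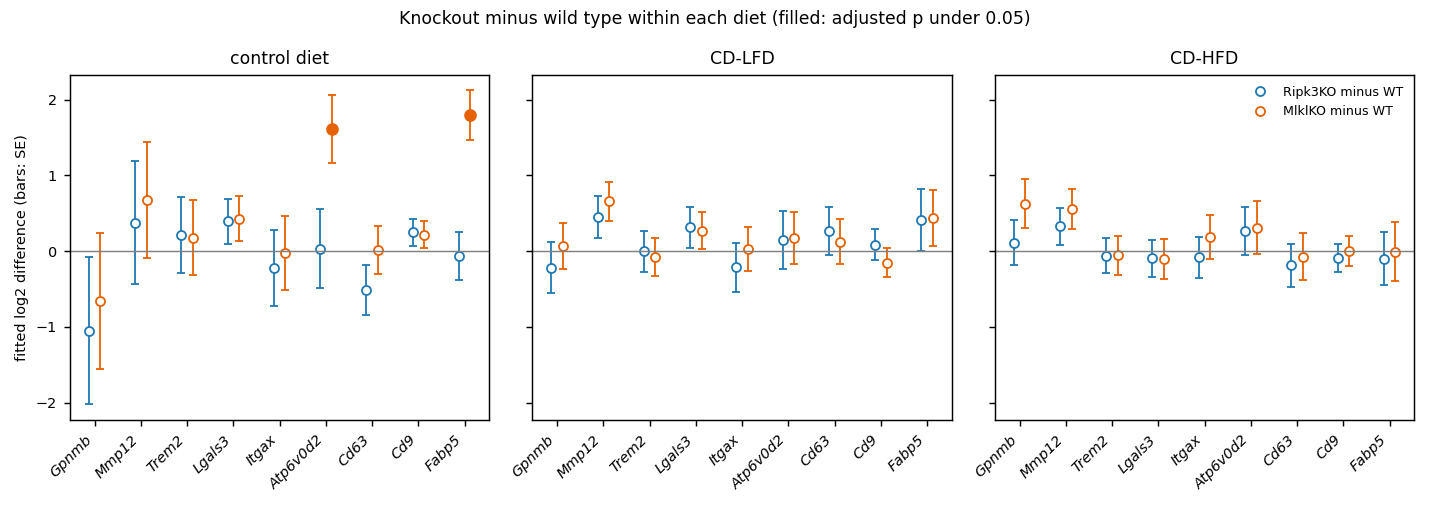
Fitted log2 difference (y axis; bars are SE) of each gene (x axis) in Ripk3KO and MlklKO against WT on control, CD-LFD and CD-HFD (panels). Filled points have an adjusted p under 0.05. The filled points are Fabp5 (1.80) and Atp6v0d2 (1.61) in MlklKO on the control diet.

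On the control diet, Fabp5 and Atp6v0d2 were higher in MlklKO livers. Fabp5 was at 86.7, 244, 461, 70.8, 179 and 141 CPM in the 6 MlklKO livers, and at 32.0, 84.9, 52.7, 87.8, 36.0 and 47.6 CPM in the 6 WT livers. The lowest MlklKO livers lay within the WT range, and 4 of the 6 lay above it. The difference was 1.80 (SE 0.33, adjusted p = 7.80e-05, edgeR quasi-likelihood). Against Ripk3KO control livers, which ran from 17.4 through 55.4 to 80.6 CPM, it was 1.86 (SE 0.32, adjusted p = 0.000400). Leaving out MlklKO control replicate 3, the liver at 461 CPM, left 1.35 against WT and 1.41 against Ripk3KO, both still called. In all, 2 of 9 members were called in MlklKO against WT, where 27.1% of all genes were called, and 2 of 9 in MlklKO against Ripk3KO, where 7.03% were. In Ripk3KO against WT 0 of 9 were called, with a background of 4.47%. Gpnmb, Mmp12, Trem2 and Itgax passed the filter only through the choline-deficient livers and could hardly be called on control. Nothing is therefore read from these counts of members.

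Atp6v0d2 was at 0.65, 7.81, 6.02, 8.01, 3.31 and 0.89 CPM in the MlklKO control livers. WT control livers ran from 0 to 3.38 CPM and Ripk3KO control livers from 0.63 to 2.93, so 3 MlklKO livers stood above every WT and Ripk3KO control liver and 3 stood within the WT range. The difference from WT was 1.61 (SE 0.45, adjusted p = 0.00658) and from Ripk3KO 1.58 (SE 0.42, adjusted p = 0.0165). Both calls were lost when only the groups compared entered the fit, with adjusted p = 0.0928 against WT and 0.127 against Ripk3KO (edgeR). Against Ripk3KO the call was also lost without MlklKO control replicate 2 (1.39) or replicate 4 (1.32). The 2 genes did not peak in the same livers: replicate 3 was highest for Fabp5 and replicate 4, the highest for Atp6v0d2, was lowest for Fabp5.

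In the same MlklKO control livers, where 27.1% of all genes were called, 5 of the 20 further lipid-associated macrophage genes, 3 of the 11 pan-macrophage markers and 6 of the 19 V-ATPase subunits tested were called. So were 6 of 18 transcription factors, 3 of 21 family relatives and 1 of 13 TREM2 partners. Nothing particular to a list is read from these counts. The genes below were picked after their values were seen. Of the 20 genes 4 were higher than in WT, namely Fabp4 (1.63, SE 0.32), Plin2 (1.26, SE 0.29), Spp1 (1.02, SE 0.33) and Ctsl (0.76, SE 0.19). Plin2 and Cidec, which was higher by 2.11 (SE 0.39), coat lipid droplets. Lipa, the lysosomal acid lipase, was lower (-0.39, SE 0.14). Of the 11 pan-macrophage markers Cd14 was higher (2.83, SE 0.39) while Aif1 (-1.40, SE 0.31) and Mertk (-0.42, SE 0.16) were lower. The summed pan-macrophage level was 141 to 251 CPM in MlklKO control livers against 148 to 205 in WT. Of the V-ATPase subunits, Atp6v0c (0.56, SE 0.18), Atp6v0e (0.50, SE 0.14), Atp6ap1 (0.45, SE 0.12) and Atp6v0d1, the other d subunit (0.40, SE 0.12), were higher, and Tcirg1 (-0.66, SE 0.20) and Atp6v1g1 (-0.37, SE 0.13) were lower. Markers of other cells went both ways. Besides Fabp4, Spp1 and Cidec, those called higher were Epcam of cholangiocytes (2.16, SE 0.55), S100a8 of neutrophils (1.48, SE 0.57), Itgb3 of platelets (1.40, SE 0.25) and Hnf4a of hepatocytes (0.97, SE 0.19). Those called lower were the dendritic cell markers Cd83 (-1.78, SE 0.52) and Zbtb46 (-0.96, SE 0.24), Itga2b of platelets (-0.93, SE 0.29) and Acp5 of osteoclasts (-0.37, SE 0.12). Of the genes named here, 6 were also called against WT in Ripk3KO control livers, in the same direction: Hnf4a (0.76, SE 0.19), Atp6v0e (0.52, SE 0.14), Atp6v0d1 (0.49, SE 0.12), Atp6ap1 (0.46, SE 0.12), Zbtb46 (-0.79, SE 0.24) and Cd83 (-1.93, SE 0.54).

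The livers also differed in a measure of the circadian clock. The log2 ratio of Arntl to Dbp, clock genes that peak at opposite times of day, ran from -7.81 to 2.69 in WT control livers, from -4.94 to -3.66 in MlklKO and from -7.34 to -5.65 in Ripk3KO control livers. On CD-LFD the WT livers, at -2.66 to -0.28, did not overlap either knockout. Ripk3KO CD-LFD livers ran from -7.31 to -6.11 and MlklKO CD-LFD livers from -7.02 to -5.85. In WT livers the medians on control, CD-LFD and CD-HFD were 0.28, -1.39 and -5.98, so the ratio differed with diet too. With this ratio as a covariate the MlklKO differences from WT on control were 1.69 (SE 0.34, adjusted p = 0.000424, edgeR) for Fabp5 and 1.52 (SE 0.49, adjusted p = 0.0211) for Atp6v0d2. Values with the covariate are given here for the control diet only.

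The diet change of Fabp5 differed between MlklKO and WT livers. The interaction of MlklKO with CD-HFD was -1.80 (SE 0.51, adjusted p = 0.0356, edgeR), and Fabp5 was the 1 member of 9 called, where 4.11% of all genes were. The call was lost with only the groups compared (adjusted p = 0.0847), without the libraries labelled Ripk3KO control replicate 5 and MlklKO CD-HFD replicate 1 (0.0806), without WT control replicates 5 and 6 (0.0556), and on leaving out any of 10 single libraries. Those 10 were WT control replicates 1 and 3, WT CD-HFD replicates 2, 3 and 6, MlklKO control replicates 2 and 3, and each of the 3 MlklKO CD-HFD livers. The smallest value without 1 library was -1.35, without MlklKO control replicate 3. On CD-HFD itself Fabp5 was at 69.0, 81.9 and 84.9 CPM in MlklKO, 78.1, 77.5, 54.8 and 84.5 in Ripk3KO and 49.4 to 109 in WT, so the 3 groups overlapped there, as they did on control.

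With CD-LFD the MlklKO interaction was -1.36 (SE 0.49, adjusted p = 0.0751) for Fabp5 and -1.44 (SE 0.57, adjusted p = 0.107) for Atp6v0d2, and 0 of 9 members were called, where 8.45% of all genes were (edgeR). At an unadjusted p under 0.05 these 2 members passed, and DESeq2 called Fabp5 (adjusted p = 0.0441). For Ripk3KO 0 of 9 members were called in the interaction with CD-LFD, with a background of 0.0269%, and 0 of 9 with CD-HFD, with a background of 0.478%. No member passed an unadjusted p of 0.05 in either, and DESeq2 called none.

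Within a group the members did not all vary together from liver to liver. Deviations of log2 CPM from the group mean were correlated over the 26 choline-deficient livers, where every member had at least 23 counts. These correlations are a description: the values share library depth and scaling, and the pairs below were picked after they were seen. The closest pair was Cd63 and Lgals3 (r = 0.923, Spearman's rho = 0.95, r = 0.925 without the 2 livers farthest from the Cd63 median). Gpnmb and Mmp12 followed (r = 0.876, rho = 0.879, 0.828 without the 2 farthest), then Trem2 with Cd63 (0.843) and with Lgals3 (0.835). Among Trem2, Cd9, Cd63 and Lgals3 the median of the 6 correlations was 0.827. Itgax was at 0.805 with Cd63, 0.804 with Trem2, 0.784 with Gpnmb and 0.738 with Mmp12, and at 0.529 with Atp6v0d2. Fabp5 had a median of 0.404 over its 8 pairs. The limit to these livers was chosen after seeing the data. Over all 44 libraries, the measure planned, the control values of Gpnmb and Mmp12 rest on 0 to 5 counts, and the correlation was 0.668 for Cd63 with Lgals3, 0.213 for Gpnmb with Mmp12, 0.144 for Trem2 with Cd63, -0.09 for Gpnmb with Trem2 and 0.543 for Fabp5 with Cd63.

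**Figure D5:**
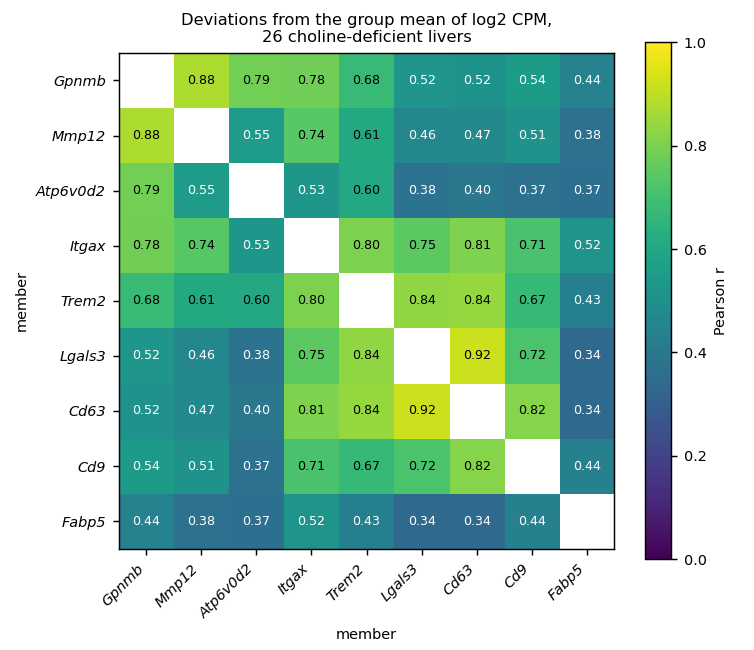
Pearson correlation (colour and printed value) of the deviations from the group mean of log2 CPM between members (both axes), over 26 choline-deficient livers. Cd63 with Lgals3 (0.92) and Gpnmb with Mmp12 (0.88) are the highest, and the low values are those of Fabp5 with most members and of Atp6v0d2 with Cd9, Lgals3 and Cd63.

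The ratio of Cd63 to Lgals3 counts ran from 0.535 to 0.753 in WT CD-LFD and from 0.355 to 0.437 in WT CD-HFD livers, and was likewise lower on CD-HFD without overlap in Ripk3KO (0.439 to 0.724 and 0.311 to 0.404) and MlklKO (0.489 to 0.619 and 0.369 to 0.420). Gpnmb to Mmp12 ran from 1.93 to 3.61 on CD-LFD and from 1.24 to 1.81 on CD-HFD in WT livers. Mmp12 to Trem2 ran from 0.949 to 2.01 and from 1.76 to 4.36 in WT, from 1.56 to 1.74 and from 3.34 to 4.47 in Ripk3KO, and from 1.58 to 2.36 and from 3.54 to 5.28 in MlklKO livers. It was higher on CD-HFD without overlap in both knockouts, and the WT ranges overlapped. In Ripk3KO livers Gpnmb to Mmp12 ran from 1.57 to 1.81 and from 1.15 to 1.49, and in MlklKO from 1.54 to 2.46 and from 1.29 to 1.70, where the medians were 1.70 and 1.67. Gpnmb to Mmp12 was lower on CD-HFD without overlap in WT and Ripk3KO livers, and the MlklKO ranges overlapped. Gpnmb to Lgals3 ran from 0.789 to 1.37 and from 0.685 to 2.03 in WT and from 0.742 to 1.17 and from 1.05 to 2.44 in MlklKO, overlapping in both, and from 0.697 to 0.809 and from 0.934 to 1.77 in Ripk3KO, where it was higher on CD-HFD without overlap.

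The genes whose pattern over the 44 libraries was most like the mean of the scaled members were Mfge8 (r = 0.981), Col1a1 (0.979), Capg (0.978), Col1a2 (0.975), Adam8 (0.974), Vim (0.972), Emp1 (0.972) and Tyrobp (0.971), among 11086 genes ranked. Mfge8 encodes a bridge between dying cells and phagocytes, Adam8 a metalloprotease of leukocytes, and Col1a1 and Col1a2 the chains of type I collagen, made in liver by activated stellate cells. These correlations mostly follow the diets. Over the deviations from the group means, which take out the differences between group means, Col3a1 (0.855), Vim (0.816), Col1a2 (0.784), Sparc (0.782), Crispld2 (0.772), Gpx3 (0.772), Ahnak (0.752) and Col6a3 (0.746) were highest. The 2 genes Vim and Col1a2 stood in both sets. These deviations include the control livers, where Gpnmb, Mmp12, Trem2 and Itgax rest on at most 12 counts per library. Fabp5 alone was most like Ybx3 (r = 0.814), which was in neither set, a comparison made after its values were seen.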

How the data were processed

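Liver RNA was made into strand-specific libraries, per the labels' protocols. The values the authors deposited are unnormalised read counts, with Ensembl identifiers. The submitters' processing notes name FastQC, STAR, HTSeq, edgeR, limma and the builds GRCm39 and mm39, with no versions. Symbols matched for 34373 of 35249 genes, and the 876 without one held 0.0838% of counts. Exon lengths came from GENCODE M21 and promoters from RefSeq (both GRCm38), so promoter coordinates are not of the authors' build.

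Genes were kept by filterByExpr (minimum count 10), which left 14862 genes with 99.8% of counts, and libraries were scaled by TMM (factors 0.800 to 1.34). The edgeR 4.0.16 quasi-likelihood F test (R 4.3.3) used the 44 libraries together and gave each group its own mean, so groups of 3 and 4 shared the dispersion. P-values were adjusted by Benjamini-Hochberg over all genes within each of 13 knockout and interaction contrasts, at 0.05, and the diet contrasts served the lists. SE is the log2 change over the square root of F. Library pairs within a group differed beyond sampling noise (chi-square per degree of freedom 6.59 to 96.7).

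All 9 members are named. From each other list the 2 largest rises and 2 largest falls called in WT on CD-HFD are named, if their average log2 CPM was not below 0, and Clec4f, Timd4, Cd5l, Acp5, Dct, Dcstamp and the genes named for MlklKO control livers were chosen after their values were seen. The members and lists were chosen with earlier results of these data known. Alternatives were RLE factors, library size only, no filter, DESeq2 1.42.0, only the groups compared, a replicate block, a clock covariate, and leaving out libraries. The marker sums without Lyz2 or Spp1 and the correlations over 26 livers were added after seeing the data.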

Additional observations from a re-analysis of the deposited data

Results flagged for a closer look

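Trem2 in WT control replicate 4 lay apart from the other 5 WT control livers, with a gap to its neighbour of 0.641 of the whole range on the log2 CPM scale, which is past Dixon's critical value. The library held 5 counts, or 1.53 CPM, the highest of the group. With a prior count of 0.5 the ratio was 0.619 and did not pass, and Itgax in WT control replicate 2 and Atp6v0d2 in WT control replicate 5, both at 0 counts, passed instead. Of 63 gene and group combinations 1 passed with the prior count of 2, and chance alone passes about 1 in 20.

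The change of Fabp5 from control to CD-HFD differed between MlklKO and WT livers by -1.80 on the log2 scale (SE 0.51, adjusted p = 0.0356, edgeR). The change was -1.33 in MlklKO and 0.48 in WT livers. The call was lost with only the groups compared (adjusted p = 0.0847, edgeR) and on leaving out any of 10 single libraries.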

How the results depend on the processing

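Replicate numbers did not pair the samples: same-number correlations ran from -0.33 to 0.30, and in no contrast was every pair above 0.1. In MlklKO against WT on control, 1 of 6 pairs correlated best with its own number. With the replicate number as a block, the Fabp5 interaction with CD-HFD was -1.66 (adjusted p = 0.0687), which left 0 members called there, and no other call changed. That count was also 0 without both libraries whose targeted gene stands apart (-1.75), without WT control replicates 5 and 6 (-1.63) and with only the groups compared (-1.84), and 0 to 1 on leaving out single libraries (-1.98 to -1.35). The interaction with CD-LFD had 0 members called, 1 by library size only, without a filter or by DESeq2, and 0 to 1 on leaving out libraries. With only the groups compared, 1 member was called in MlklKO against WT on control and 1 in MlklKO against Ripk3KO on control, the latter 1 to 2 on leaving out libraries. The cause was not tested. Over the knockout contrasts 790 of 792 single-gene values without 1 library kept their side of the threshold, and 714 of 716 under other settings. For the interactions these were 762 of 774 and 317 of 324, and no called value changed sign, while 107, 67, 81 and 24 uncalled ones did. Members near 0 on control (up to 5 counts of Gpnmb or Mmp12, 11 of Trem2 and 12 of Itgax) limit what a knockout difference there could show.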
